A study of Mus musculus with 4 samples.

Results

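The nuclear genes for the subunits of respiratory chain complexes I to IV were followed in immortalized mouse dermal fibroblasts with and without LAP2alpha. A gene was taken if its RefSeq symbol began with *Ndufa*, *Ndufb*, *Ndufc*, *Ndufs* or *Ndufv* and a number, with *Uqcr* or with *Cox4* to *Cox8*, or was *Sdha*, *Sdhb*, *Sdhc*, *Sdhd* or *Cyc1*, and pseudogenes were left out. This gave 68 genes with 85 of the 32757 transcript IDs that were counted, namely 37 genes of complex I, 4 of complex II, 9 of complex III and 18 of complex IV. Each gene was represented by its ID with the most reads. Of the 68, 53 had at least 1 count per 1000000 reads given to transcripts (CPM) in both libraries of at least 1 genotype and were tested, and all 53 reached 1 CPM in every library. The subunits encoded by mitochondrial DNA were not analysed here.

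The respiratory chain sits in the inner mitochondrial membrane and passes electrons from NADH and succinate to oxygen. Complex I (NADH dehydrogenase) and complex II (succinate dehydrogenase) reduce ubiquinone, complex III (the cytochrome bc1 complex) hands the electrons to cytochrome c, and complex IV (cytochrome c oxidase) hands them to oxygen. Complexes I, III and IV pump protons, and ATP synthase uses the gradient to make ATP. Most subunits are encoded in the nucleus, and several small subunits of complex IV come as a widely expressed isoform and as isoforms of muscle, lung or testis.

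Total RNA depleted of rRNA was sequenced in 4 libraries of imMDFs, an immortalized line from mouse dermis grown in DMEM with fetal calf serum. The *Tmpo* KO cells (Lap2alpha -/-) lack the *Tmpo* exon that is specific to LAP2alpha, a nucleoplasmic partner of lamin A/C, and the *Tmpo* WT cells (Lap2alpha +/+) carry it. Each genotype had 1 library at passage 42 (replicate 2) and 1 at passage 34 (replicate 1), and no treatment was given. The sources name 1 line per genotype, so an effect of LAP2alpha and one of the line cannot be told apart. They do not say that the replicates were separate cultures beyond their passages, so every p-value here measures no more than how these 4 libraries scatter. The fits share that scatter across transcripts, so it is not the scatter of 1 gene alone, and it may be technical.

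Reads given to transcripts numbered between 12168433 and 19603812 per library, 31.4% to 36.7% of all reads in a file. The *Tmpo* transcript NM_011605, which goes with the labels, had 6 counts in each KO library, against 1324 counts at passage 42 and 903 at passage 34 in WT. The cells matched their fibroblast label by *Col1a1*, *Col1a2*, *Col3a1* and *Vim*, with 14114 to 92537 counts each, while *Pdgfrb* had no count in any library and *Pdgfra*, *Dcn* and *Lum*, of the same list, had 12 to 150. *Thy1*, also on it, differed between the genotypes, with 14838 and 20957 counts in KO at passages 42 and 34, against 4307 and 3743 in WT. Its log2 fold change was 1.80 (adjusted p = 0.00469, edgeR). The melanocyte gene *Tyr* had 314 to 654 counts. Summed over each list, markers of muscle, adipocytes, keratinocytes, melanocytes, endothelium and leukocytes reached between 5.28 and 43.8 CPM in any library. Members of 1 list differed: the muscle gene *Ckm* had 1 to 4 counts and *Myh7* 45 to 72. The adipocyte gene *Plin1* had 0 or 1 and *Fabp4* 58 to 102, and the leukocyte gene *Ptprc* had 0 to 4 and *Csf1r* 66 to 178. In bulk RNA, fewer cells and less RNA per cell cannot be told apart.

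The promoters of 53 of the 68 genes were matched in the RefSeq promoter table of GRCm38.p6, which holds 250 bases before to 50 bases after each start. *Uqcrq*, *Sdhc* and *Uqcrb* were not among them. They were searched on both strands for NRF1 (GCGCATGC), ETS (CCGGAAG) and YY1 (AAGATGG) letters, since NRF1, the ETS factor GABP (NRF2) and YY1 are known regulators of nuclear respiratory genes. The NRF1 letters were found for 7 of 53 genes (13.2%), against 2.71% of all 32851 promoters. The ETS letters were found for 11 genes (20.8%), against 8.86%, and the YY1 letters for 8 genes (15.1%), against 6.34%. Any of the 3 was present for 23 genes (43.4%), against 16.6% of all promoters. A match describes the letters and is not a bound site. The YY1 letters lay mostly in complex I, in 7 of 32 genes, and in 1 gene of complex IV. *Sdhb* (complex II), *Uqcr11* (complex III) and *Cox6a1* (complex IV) were the genes that held both NRF1 and ETS letters, and their promoters are shown beside that of *Cox5a*, which was called between passages below and held none of the 3. Each runs 5′ to 3′ along the gene's strand, with matches in capitals. The *Sdhb* window is chr4:140961021-140961320 (plus strand), *Uqcr11* chr10:80406772-80407071 (minus), *Cox6a1* chr5:115348909-115349208 (minus) and *Cox5a* chr9:57520982-57521281 (plus), all in GRCm38.p6. In *Cox6a1* the palindromic stretch matched NRF1 on both strands.
Sdhb: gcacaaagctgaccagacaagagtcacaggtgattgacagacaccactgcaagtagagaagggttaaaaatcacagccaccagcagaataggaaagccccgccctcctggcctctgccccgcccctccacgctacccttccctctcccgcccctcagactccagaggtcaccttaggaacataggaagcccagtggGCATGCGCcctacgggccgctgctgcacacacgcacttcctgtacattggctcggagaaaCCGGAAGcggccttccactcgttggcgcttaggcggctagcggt
Uqcr11: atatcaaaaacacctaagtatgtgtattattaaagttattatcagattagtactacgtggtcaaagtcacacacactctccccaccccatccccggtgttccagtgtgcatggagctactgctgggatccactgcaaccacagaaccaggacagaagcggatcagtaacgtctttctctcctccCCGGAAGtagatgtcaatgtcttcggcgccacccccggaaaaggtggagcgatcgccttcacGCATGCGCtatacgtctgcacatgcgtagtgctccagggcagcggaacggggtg
Cox6a1: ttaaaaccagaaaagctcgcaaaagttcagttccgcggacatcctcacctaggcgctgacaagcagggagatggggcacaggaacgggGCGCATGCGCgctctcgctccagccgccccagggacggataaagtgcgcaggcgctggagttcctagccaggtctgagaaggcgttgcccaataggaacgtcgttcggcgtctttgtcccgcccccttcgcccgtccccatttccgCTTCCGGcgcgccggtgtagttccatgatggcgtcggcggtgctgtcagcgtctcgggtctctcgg
Cox5a: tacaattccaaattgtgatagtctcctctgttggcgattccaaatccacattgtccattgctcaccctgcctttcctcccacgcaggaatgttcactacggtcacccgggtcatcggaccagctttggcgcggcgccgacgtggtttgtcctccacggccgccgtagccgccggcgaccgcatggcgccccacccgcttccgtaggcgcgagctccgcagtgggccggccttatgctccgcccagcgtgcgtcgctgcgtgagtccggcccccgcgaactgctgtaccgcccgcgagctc

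Levels of the subunits were first compared per length of transcript, as CPM per kb of the median annotated transcript, averaged over the libraries of a genotype. CPM here and below were scaled by the TMM factors of edgeR, which ran from 0.98 to 1.03. The 53 tested genes ran over a wide range, with a median of 103 CPM per kb over both genotypes. Complex IV genes had a median of 215 CPM per kb and complex III genes 174, above complex II with 84.7 and complex I with 80.4. These orders rest on annotated lengths and on reads that map to 1 place, so small differences between neighbours are not read.

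In complex I, *Ndufa4* stood highest, with 563 CPM per kb in KO and 709 in WT. *Ndufa4* is named as a complex I subunit but was later placed in complex IV. *Ndufa12*, an accessory subunit, followed with 276 in KO and 263 in WT. In complex II the levels lay close together. Over both genotypes the membrane anchor *Sdhc* was highest, with 121 CPM per kb in KO and 81.4 in WT, then the iron-sulfur subunit *Sdhb*, with 89.2 in KO and 81.8 in WT, while in WT alone *Sdhd* was highest with 87.8. In complex III the hinge protein *Uqcrh* led with 301 CPM per kb in KO and 309 in WT, ahead of *Uqcr10* with 196 in KO and 256 in WT. In complex IV *Cox8a* led with 499 CPM per kb in KO and 643 in WT, ahead of *Cox6a1* with 421 in KO and 394 in WT.

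**Figure D1:**
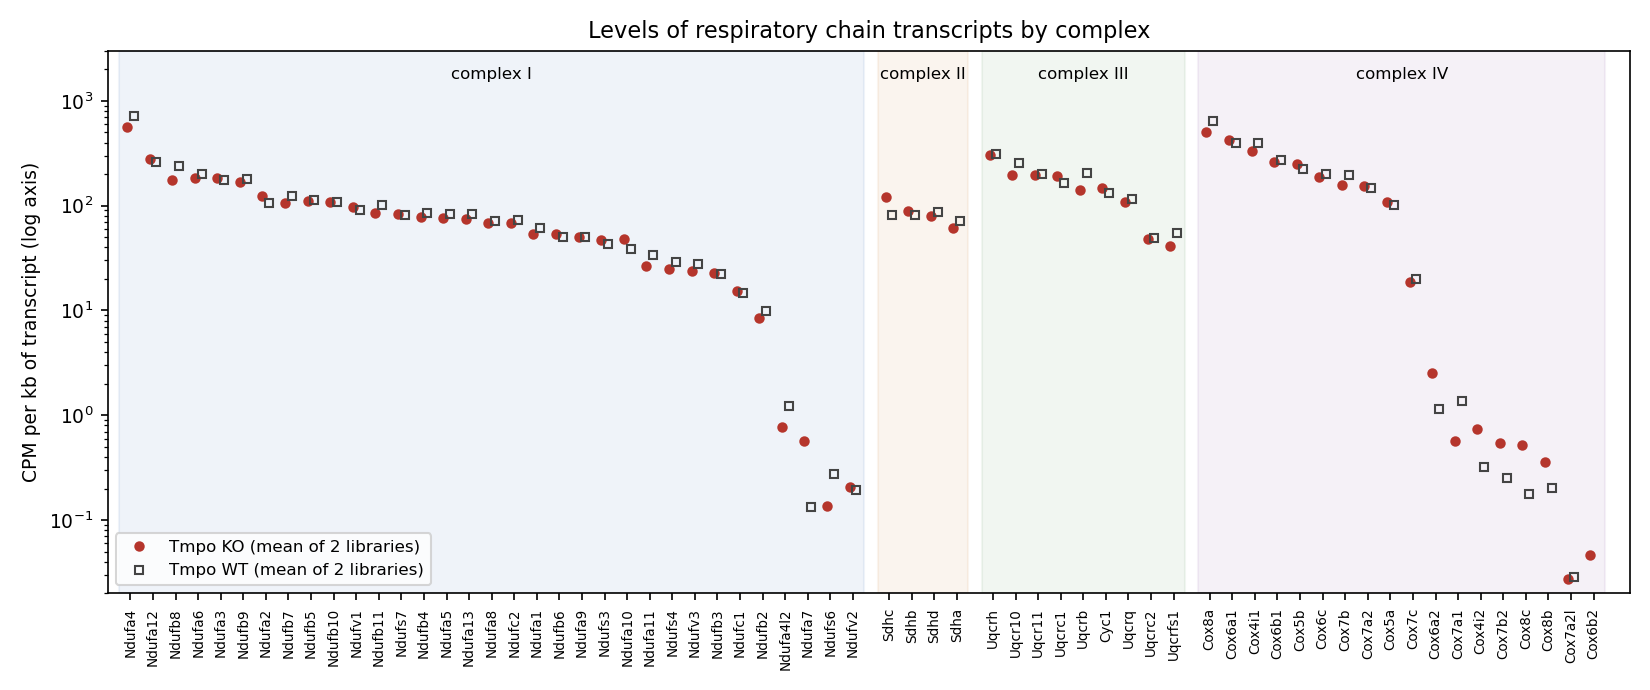
Level of the subunit genes as CPM per kb of transcript on a log axis, by complex, with filled red circles for the mean of the 2 KO libraries and open squares for the mean of the 2 WT libraries. The tested genes lie between 8.39 and 709 CPM per kb, and isoforms known from other tissues lie below 3 CPM per kb. So do *Ndufa7*, *Ndufs6*, *Ndufv2*, *Cox7a2l* and *Cox6b2*, which have several IDs and whose low counts are not read as low levels. A genotype with no count has no point.

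The isoforms of complex IV were those of most tissues. Per length, *Cox4i1* had 335 CPM per kb in KO and 393 in WT, whereas its lung isoform *Cox4i2* had 0.744 in KO and 0.319 in WT. *Cox6a1* was likewise far above its heart and muscle isoform *Cox6a2*, which had 2.51 CPM per kb in KO and 1.16 in WT. *Cox7a2* had 155 CPM per kb in KO and 147 in WT, against 0.569 in KO and 1.36 in WT for the muscle isoform *Cox7a1*. *Cox7b* (157 in KO, 198 in WT) also stood far above its testis isoform *Cox7b2*, which had 0.54 CPM per kb in KO and 0.253 in WT. *Cox6b1* had 260 CPM per kb in KO and 273 in WT. *Cox8b* of muscle and *Cox8c* of testis had 7 and 11 counts over the 4 libraries. In complex I, the hypoxia-induced paralog *Ndufa4l2* had 18 and 9 counts in KO at passages 42 and 34, against 21 and 12 in WT.

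Altogether 15 genes had too few counts to be tested. Each RefSeq ID had a count of its own, and no source used here states how reads in exons shared by several IDs of a gene were treated. Of the 8 members with more than 1 ID, only *Ndufv3*, with 1027 counts, was tested, and the low counts of the other 7 are not read as low levels. *Ndufs1* and *Ndufs8*, core subunits that carry iron-sulfur clusters, had 4 and 3 IDs and no count at all. *Ndufv2*, *Ndufa7*, *Ndufs6*, *Cox7a2l* and *Cox6b2* had 12, 11, 7, 2 and 1 counts over all their IDs. *Ndufs5*, with 1 ID, also had no count in any library. The rest of the 15 were the paralogs *Ndufa4l2*, *Cox4i2*, *Cox6a2*, *Cox7a1*, *Cox7b2*, *Cox8b* and *Cox8c*.

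The first comparison asked whether subunit transcripts differed between KO and WT cells. None of the 53 tested genes passed an adjusted p of 0.05 in edgeR's quasi-likelihood test, where 381 of 13855 transcripts (2.75%) did. At an unadjusted p under 0.05 there were 2 of 53, against 12.8% of all transcripts. By DESeq2, too, none passed. With a replicate block 1 of the 53, *Sdhc*, passed, where 7.88% of all transcripts did. In 21 genes the estimate was above 0 and in 32 below, with a median log2 fold change of −0.07, beside 0.02 over all transcripts tested. The median was −0.07 in complex I, 0.00 in complex II, −0.04 in complex III and −0.08 in complex IV. The 95% interval lay within a 2-fold change in either direction for 51 of 53 genes. The exceptions were *Sdhc* and *Uqcrq*. The intervals, which are not adjusted, typically reached 0.48 to either side on the log2 scale, a factor of 1.39, so smaller differences could not be told from 0. Larger ones, *Sdhc* with 0.57 and *Uqcrb* with −0.53, also missed the adjusted threshold in the fit without a block. Both KO libraries were below both WT libraries in 10 genes (18.9%), against 19.9% of all transcripts, and above them in 4 (7.55%), against 21.9%.

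**Figure D2:**
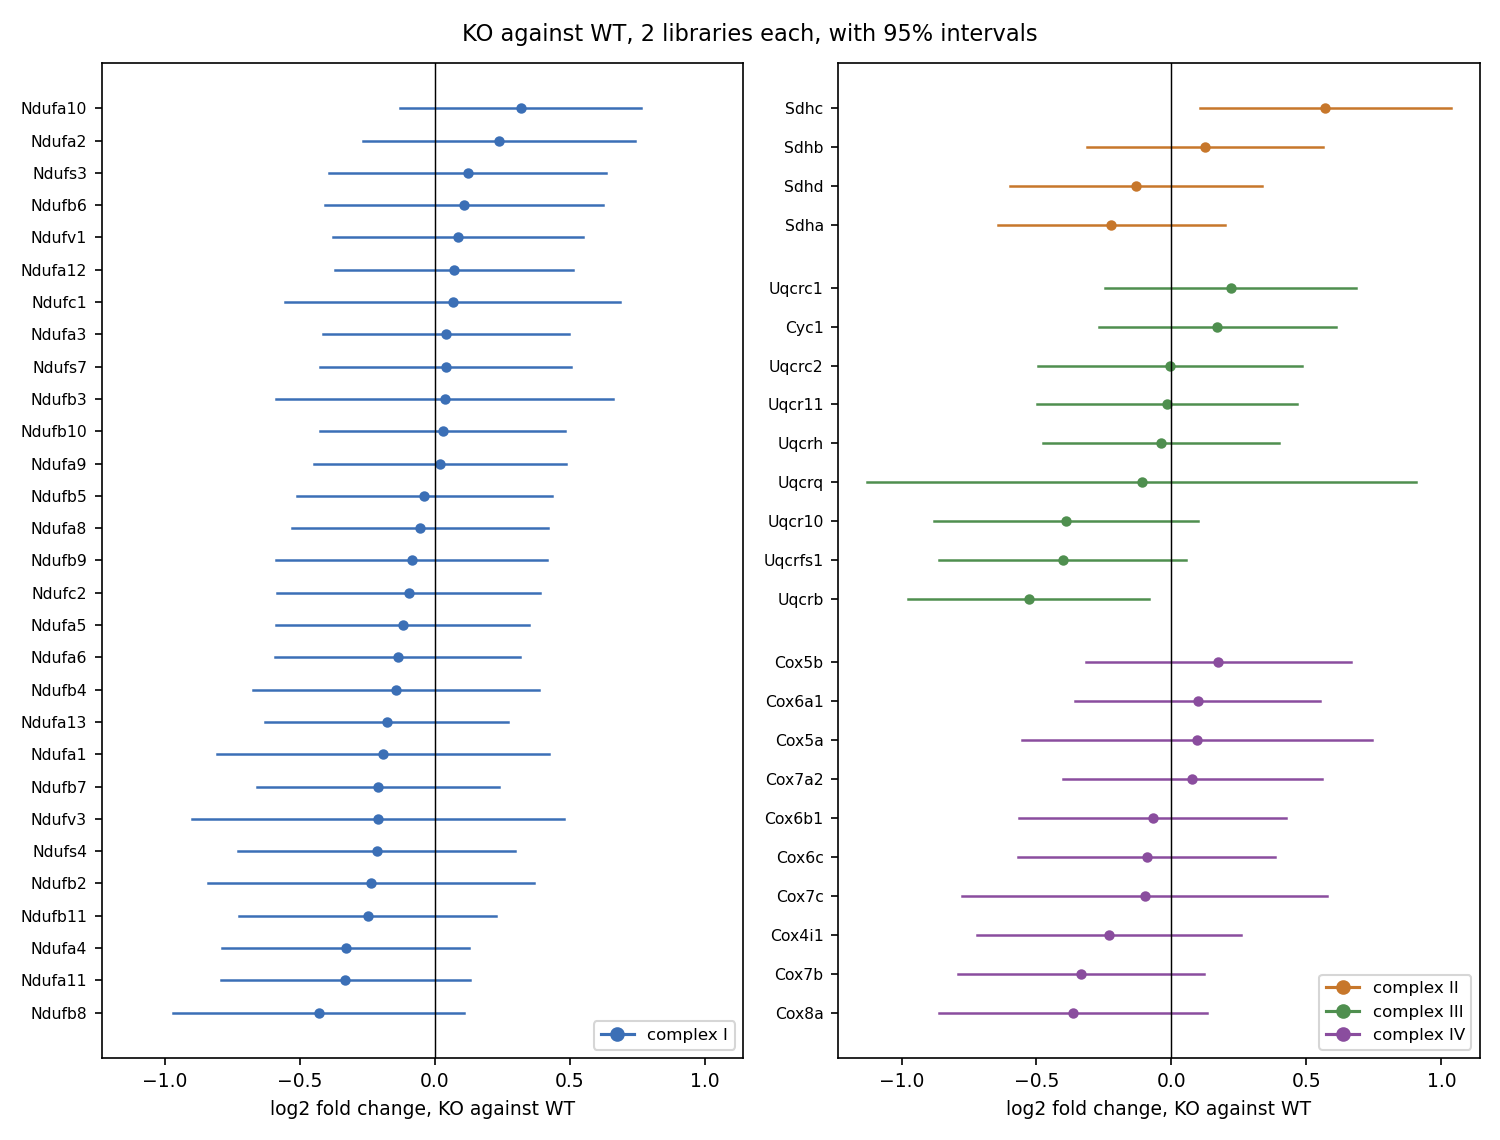
log2 fold change of tested subunit genes, KO against WT, from edgeR over 2 libraries per genotype, with lines for 95% intervals, ordered within complexes. The estimates run from −0.53 for *Uqcrb* to 0.57 for *Sdhc*, and these are the only intervals shown that leave out 0.

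In complex II, *Sdhc*, which anchors the enzyme in the membrane and helps to bind ubiquinone, had the largest positive estimate of all tested subunits. It lies on chromosome 1 of NCBIM37 (mm9) from 173057296 to 173080734, minus strand. It had 96.4 and 101 CPM in KO at passages 42 and 34, against 58.1 and 74.7 CPM in WT. Both KO libraries were above both WT libraries. The log2 fold change was 0.57 (standard error 0.211, adjusted p = 0.252 and unadjusted p = 0.0204, edgeR). With the replicate number, which marks the passage, as a block it was 0.58 and past the threshold (adjusted p = 0.0472, edgeR). *Sdha*, the flavoprotein that oxidises succinate, had 183 and 169 CPM in KO at passages 42 and 34 and 208 and 202 CPM in WT, a log2 fold change of −0.22 (adjusted p = 0.745, edgeR). *Sdhb*, the iron-sulfur protein, had 105 and 98.7 CPM in KO and 86.6 and 100.3 CPM in WT, which overlapped. The other anchor, *Sdhd*, had an estimate of −0.13, so the 4 subunits of this complex did not lie on one side of 0.

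In complex III, *Uqcrb*, a small subunit near the ubiquinone site, had the largest negative estimate. It lies on chromosome 13 of NCBIM37 from 67001553 to 67006314, minus strand, with exons that overlap *Gm10767* on the other strand. It had 78.0 and 74.3 CPM in KO at passages 42 and 34, against 99.5 and 120.2 CPM in WT, and the groups did not overlap. The log2 fold change was −0.53 (standard error 0.203, adjusted p = 0.275 and unadjusted p = 0.0243, edgeR). Exact copies elsewhere in the genome cover 61.5% of its 50-base windows, the highest share among the 68 genes, and reads under the authors' minimum of mapping quality were not counted.

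The other small subunits of complex III and its catalytic subunits went different ways. *Uqcr10* had 76.5 and 93.3 CPM in KO at passages 42 and 34, against 94.6 and 128 CPM in WT, a log2 fold change of −0.39 (adjusted p = 0.546, edgeR). *Uqcrh* had 151 and 135 CPM in KO and 135 and 159 CPM in WT, which overlapped. The 5 small subunits *Uqcr10*, *Uqcr11*, *Uqcrb*, *Uqcrh* and *Uqcrq* all had estimates below 0, from −0.53 to −0.02. The Rieske iron-sulfur protein *Uqcrfs1* had an estimate of −0.40 (adjusted p = 0.483, edgeR), and *Cyc1*, cytochrome c1, one of 0.17. *Uqcrc1*, a core protein that faces the matrix, had the largest positive estimate of the complex, with 235 and 282 CPM in KO at passages 42 and 34, against 197 and 248 CPM in WT. Its log2 fold change was 0.22 (standard error 0.211, adjusted p = 0.787 by edgeR), and its partner *Uqcrc2* had −0.01.

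In complex I, the core subunits *Ndufs3*, *Ndufs7* and *Ndufv1*, all of the peripheral arm that holds the flavin and the iron-sulfur clusters, had estimates of 0.12, 0.04 and 0.09, none past the test. *Ndufa10*, an accessory subunit of the membrane arm, had 102 and 92.4 CPM in KO at passages 42 and 34, against 71.5 and 84.9 CPM in WT, and the groups did not overlap. Its log2 fold change was 0.32, the largest of the complex (standard error 0.204, adjusted p = 0.61, edgeR). *Ndufb8*, another membrane-arm subunit, had the lowest estimate, −0.43 (standard error 0.245, adjusted p = 0.546, edgeR). It had 86.6 and 92.4 CPM in KO and 91.4 and 150.1 CPM in WT, so the estimate rests on the WT library of passage 34, and without that library it was −0.03. *Ndufa12*, with 180.3 and 197 CPM in KO at passages 42 and 34 and 162 and 197 CPM in WT, did not separate the genotypes. *Ndufa4* had 288 and 266 CPM in KO and 307 and 391 CPM in WT, a log2 fold change of −0.33 (adjusted p = 0.602, edgeR).

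In complex IV, estimates ran from −0.37 for *Cox8a*, a small membrane subunit, to 0.17 for *Cox5b*, a subunit on the matrix side. *Cox8a* had 278 and 266 CPM in KO at passages 42 and 34, against 285 and 416 CPM in WT. The WT library of passage 34 again stood above the other 3. That library was also the highest for *Cox4i1*, which had 236 and 218 CPM in KO and 219 and 314 CPM in WT, with groups that overlapped. *Cox5b* had 133 and 129 CPM in KO and 94.0 and 138 CPM in WT, which overlapped. *Cox6a1*, with 237 and 244 CPM in KO at passages 42 and 34 and 196 and 254 CPM in WT, differed by less than its WT libraries did. *Cox6b1* had 121 and 142 CPM in KO and 113 and 162 CPM in WT. *Cox7a2* had 115 and 118 CPM in KO and 91.6 and 129.9 CPM in WT, also overlapping. *Cox7b* had 163 and 150.2 CPM in KO, against 172 and 223 CPM in WT, with a log2 fold change of −0.33 (adjusted p = 0.594, edgeR). *Cox7c* had the lowest CPM of the tested genes before division by length, with 8.28 and 10.0 CPM in KO and 9.92 and 9.65 CPM in WT, and 29.8% of its 50-base windows have exact copies elsewhere.

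The second comparison was between passages, with genotype as a term, since each genotype had 1 library per passage. Transcripts of *Uqcrq* and *Cox5a* fell at passage 42, 2 of 53 tested subunits, where 0.541% of all transcripts were called lower at passage 42 and no tested subunit was called higher. In all, 44 of 53 estimates were below 0, with a median log2 fold change of −0.13, beside 0.01 over all transcripts.

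*Uqcrq*, the small ubiquinone-binding subunit of complex III, lies on chromosome 11 of NCBIM37 from 53241424 to 53244333, minus strand. It had 22.5 CPM at passage 42 and 86.4 CPM at passage 34 in KO cells, and 47.9 and 69.5 CPM in WT cells, where its counts were 434 and 1407 in KO and 753 and 829 in WT. Both passage 42 libraries were below both passage 34 libraries, most of all in KO. The difference of log2 CPM, passage 42 minus passage 34, was −1.94 in KO and −0.54 in WT. The fit shares its error across transcripts, so its standard error does not measure this gap. The log2 fold change between passages was −1.24 (standard error 0.226, adjusted p = 2.09e-05, edgeR). Between genotypes it was −0.11, with a wide interval from −1.13 to 0.91. That estimate turned on single libraries: without the KO library of passage 34 it was −1.38 (adjusted p = 0.000208, edgeR), without that of passage 42 it was 0.56, and without the WT library of passage 34 it was 0.18. At passage 42 KO was 1.09 below WT on the log2 scale, and at passage 34 it was 0.31 above.

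*Cox5a*, a matrix-side subunit of cytochrome c oxidase whose promoter is shown above, lies on chromosome 9 of NCBIM37 from 57369039 to 57380231, plus strand, with exons that overlap *Gm17596* on the other strand. It had 53.5 CPM at passage 42 and 94.96 CPM at passage 34 in KO cells, and 54.8 and 84.3 CPM in WT cells. In both genotypes passage 42 was lower, and the passages did not overlap. The log2 fold change was −0.72 (standard error 0.206, adjusted p = 0.0262, edgeR). The call was kept in 2 of 10 alternatives, RLE size factors and library totals alone, and lost in others (adjusted p = 0.119 without a filter on low counts, 0.166 with DESeq2 and 0.121 with an offset on transcript length). Without the genotype term no transcript was called, and both genes had an adjusted p of 0.967. *Uqcrq* kept its call in 5 of 10 alternatives and lost it without the genotype term and with each library left out of that fit (adjusted p from 0.187 to 0.9999, edgeR). At an unadjusted p under 0.05, *Ndufb8* with −0.40 and *Cox6b1* with −0.38 were also lower at passage 42, with adjusted p-values of 0.35 and 0.379 by edgeR.

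**Figure D3:**
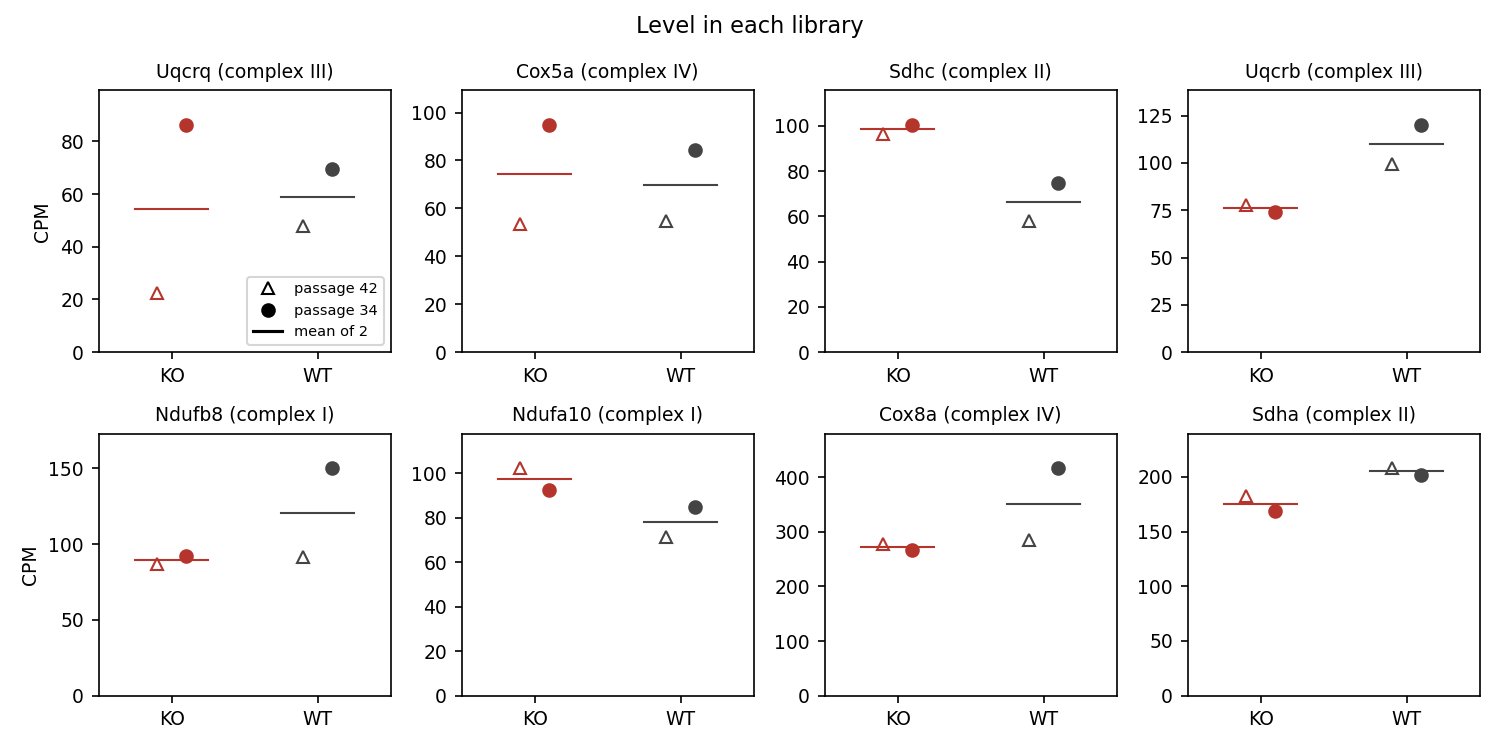
CPM in each library for 8 genes, with KO left and WT right, triangles for passage 42, circles for passage 34 and a line for the mean of 2 libraries, each axis from 0. *Uqcrq* and *Cox5a* are lower at passage 42 in both genotypes, *Sdhc* and *Ndufa10* are higher in both KO libraries, *Uqcrb* and *Sdha* lower, and *Ndufb8* and *Cox8a* are set by the WT library of passage 34.

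Within a passage, with 1 library per genotype and no test, the subunits as a group lay on opposite sides of 0. At passage 42, KO was above WT in 39 of 53 genes, where 50.7% of all transcripts were, and the median difference of log2 CPM was 0.16, beside 0.01 over all transcripts. At passage 34, KO was below WT in 43 of 53 genes, where 49.2% of all transcripts were, and the median was −0.24, beside 0.01. The medians were 0.21 at passage 42 and −0.29 at passage 34 in complex I, 0.16 and −0.14 in complex II, 0.03 and −0.24 in complex III, and 0.10 and −0.17 in complex IV. Genes that were below WT at passage 34 and above it at passage 42 numbered 32 of 53 (60.4%), against 20.1% of all transcripts. With reads scaled by library totals alone, 39 genes were above at passage 42 and 39 below at passage 34. With an offset on transcript length the counts were 37 and 37, and the complex III median at passage 42 turned to −0.01.

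Other genes kept 1 sign at both passages, of which these are examples. *Sdhc* was above WT, by 0.73 at passage 42 and 0.43 at passage 34, and so was *Ndufa10*, by 0.52 and 0.12. *Uqcrb* was below WT by 0.35 at passage 42 and by 0.69 at passage 34 on the log2 scale, and *Sdha* by 0.19 and 0.26. *Cyc1* and *Uqcrc1* had positive differences at both passages, while *Uqcrfs1*, *Uqcr10*, *Ndufa11*, *Ndufa4*, *Ndufb8*, *Cox7b* and *Cox8a* had negative ones. *Uqcrq*, *Cox5a* and *Cox7c* went the other way from the group, above WT at passage 34 and below it at passage 42.

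**Figure D4:**
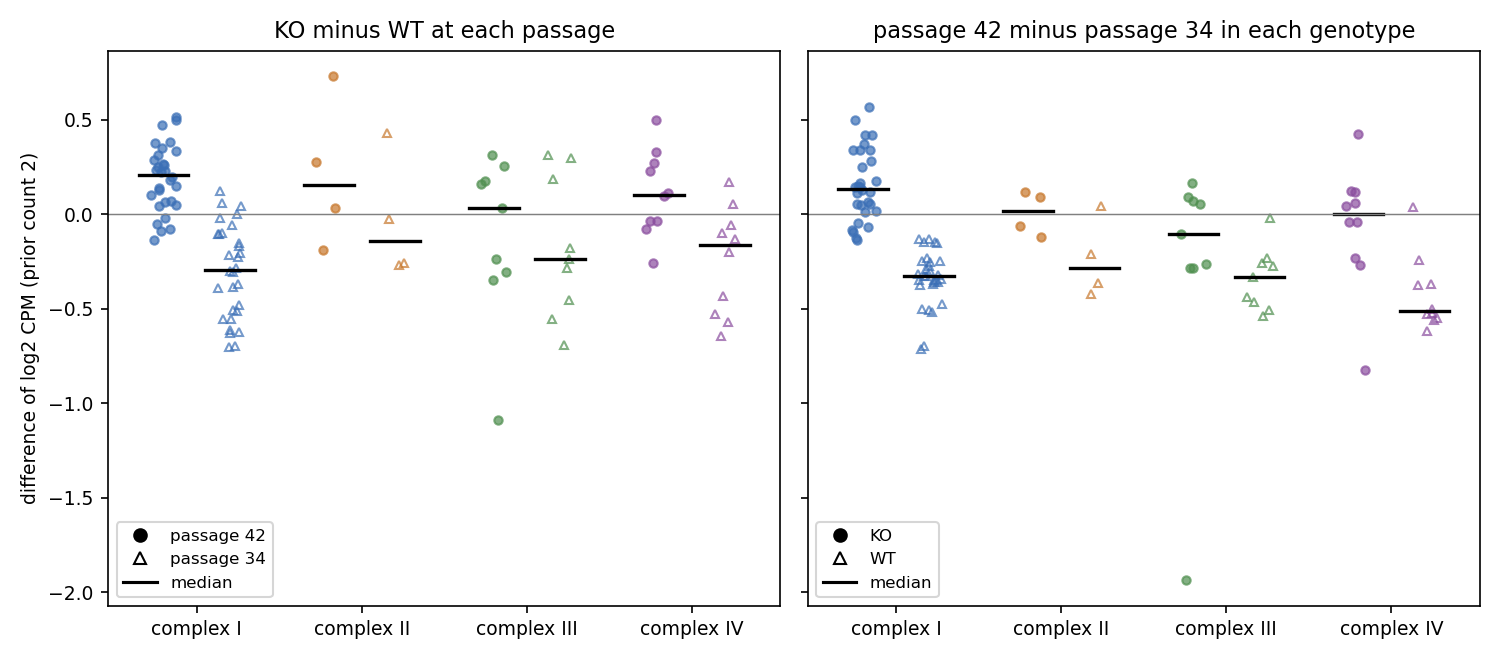
Differences of log2 CPM for the 53 tested genes by complex, on the left KO minus WT at passage 42 (circles) and passage 34 (triangles), on the right passage 42 minus passage 34 in KO (circles) and WT (triangles), with black lines for medians. On the left the complex I medians are 0.21 and −0.29, and on the right 51 of 53 WT differences are below 0.

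The same differences seen within a genotype showed which library stood apart. In KO cells passage 42 was above passage 34 in 35 of 53 genes, where 52.2% of all transcripts were. The median difference was 0.06, beside 0.03 over all transcripts. In WT cells passage 42 was below passage 34 in 51 of 53 genes, where 50.7% of all transcripts were. The median there was −0.35, beside −0.01 over all transcripts. The exceptions were *Sdha* and *Cox7c*, each 0.04 above. The WT library of passage 34 had the highest level of the 4 libraries in 37 of 53 genes (69.8%), against 23.8% of all transcripts, and the lowest in none. The WT library of passage 42 was lowest in 25 genes (47.2%), against 24.0% of all transcripts. The KO library of passage 34 was lowest in 23 (43.4%), against 29.2%. Without the WT library of passage 34 the median of the 53 genes, KO against WT, was 0.15 in place of −0.07, and without that of passage 42 it was −0.22, again with no subunit called in either.

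Other measures of the libraries moved with these levels. The 68 genes took 0.524% and 0.54% of the reads given to transcripts in KO at passages 42 and 34, and 0.49% and 0.611% in WT. Reads in no annotated transcript were 54.3% of all reads in both KO files, and 56.5% at passage 42 and 49.9% at passage 34 in WT. By these shares, the library with the highest share of subunit reads had the lowest share of unassigned ones. The library with the lowest share of subunit reads had the highest share of unassigned ones. Transcript length moved with the differences as well. The tested subunits had a median length of 683 bases, against 2363 for all tested transcripts with a length. Transcripts of up to 1200 bases had a median WT difference, passage 42 against passage 34, of −0.14, against 0.17 for those over 5000 bases. With the length offset the WT median of the subunits was −0.24, with 48 of 53 genes below 0. With the 13 genes that have over 10% copied windows left out, the median over 40 genes was 0.13 at passage 42 and −0.26 at passage 34. The part of unassigned reads in the pattern was not tested.

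**Figure D5:**
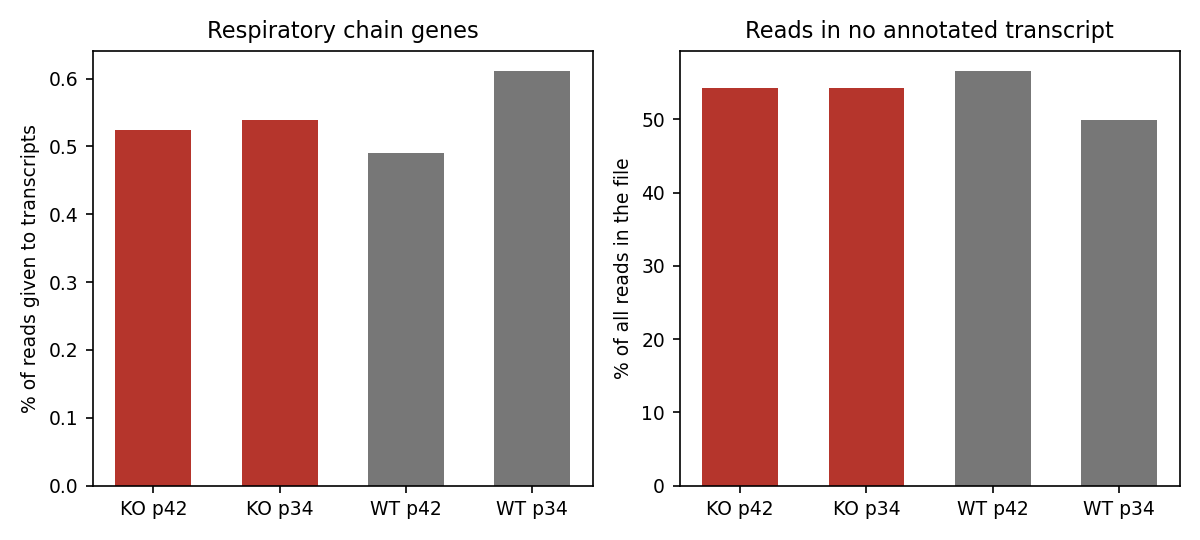
Share of reads in each library, KO (red) left of WT (grey) with passage 42 before passage 34 in each, for the 68 subunit genes in % of reads given to transcripts (left) and for reads in no annotated transcript in % of all reads in the file (right), both axes from 0. WT at passage 34 has the highest subunit share, 0.611%, and the lowest unassigned share, 49.9%.

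Genes that work with the chain were read from lists of companions. For ATP synthase, none of 14 tested genes of 16 was called between genotypes, with a median log2 fold change of 0.01, and 1 had an unadjusted p under 0.05. This was *Atp5md*, a small membrane subunit, which had 61.2 and 58.6 CPM in KO at passages 42 and 34, against 78.5 and 91.1 CPM in WT, with a log2 fold change of −0.50 (adjusted p = 0.312, edgeR). The next by p were *Atp5a1* with 0.31, *Atp5j2* with −0.26 and *Atp5g2* with 0.26. *Atp5g3*, which encodes the c subunit of the rotor ring, fell at passage 42, by 0.66 on the log2 scale (adjusted p = 0.0208, standard error 0.183, edgeR). It had 116 CPM at passage 42 and 254 CPM at passage 34 in KO, and 145 and 166 CPM in WT. The difference of log2 CPM was −1.13 in KO and −0.19 in WT, a gap that the fit's shared error does not measure. In WT cells all 14 ATP synthase genes were lower at passage 42 than at passage 34, with a median of −0.33, close to that of the subunits.

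Of the assembly factors, 26 of 39 tested were lower at passage 42 than at passage 34 in WT cells, with a median of −0.15. None of the 39, out of 46 on the list, was called between genotypes, the median was 0.03, and 4 (10.3%) had an unadjusted p under 0.05, a smaller share than over all transcripts. These were *Nubpl*, which delivers iron-sulfur clusters to complex I, with a log2 fold change of 1.14, the complex III factor *Uqcc3* with −0.98, the complex II factor *Sdhaf4* with 0.87 and *Cmc2*, a complex IV factor, with −0.56, with adjusted p between 0.264 and 0.348 by edgeR. *Sdhaf4* had 9.42 and 9.33 CPM in KO at passages 42 and 34, against 3.75 and 6.54 CPM in WT. Of the electron carriers and the ubiquinone pathway, none of 12 tested of 13 was called and 0 had an unadjusted p under 0.05, and the 4 with the smallest p were *Coq4* with 0.44, *Coq6* with 0.38, *Pdss1* with −0.32 and *Coq5* with 0.28.

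Of the regulators of mitochondrial biogenesis, none of 16 tested of 22 was called between genotypes, with a median log2 fold change of 0.15, and 2 (12.5%) had an unadjusted p under 0.05, close to the 12.8% of all transcripts. *Ppargc1b*, a coactivator of nuclear respiratory genes, had 7.55 CPM in both KO libraries, against 4.20 and 2.77 CPM in WT at passages 42 and 34. Its log2 fold change was 1.11 (standard error 0.361, adjusted p = 0.177, edgeR). *Yy1*, whose letters were searched in the promoters, had 125 and 117 CPM in KO and 81.5 and 90.3 CPM in WT, a log2 fold change of 0.49 (adjusted p = 0.295, edgeR). Neither gene's groups overlapped, and both KO libraries were above both WT libraries in 21.9% of all transcripts. *Polrmt*, the mitochondrial RNA polymerase, had an estimate of 0.21 and the transcription factor *Tfb2m* one of 0.18. *Pprc1*, a coactivator related to PGC-1, was the 1 regulator of 16 called between passages. It rose at passage 42 with a log2 fold change of 0.62 (adjusted p = 0.0341, edgeR). Over all transcripts, 245 of 13855 were called higher at passage 42, and none without the genotype term. *Pprc1* had 185 CPM at passage 42 and 139 at passage 34 in KO and 221 and 124 CPM in WT.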

How the data were processed

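RNA was sequenced from 2 *Tmpo* KO and 2 *Tmpo* WT libraries, 1 of each genotype at passage 42 and 1 at passage 34, grouped by the sample labels. The deposited values are raw counts per RefSeq transcript ID. The authors removed adapters with cutadapt, mapped reads to NCBI37/mm9 with TopHat2 2.0.9 and counted with htseq-count above a minimum mapping quality. No source used here states the strand setting or the other versions. Reads of no feature and ambiguous reads, 63.3% to 68.6% of a file, stayed out of library sizes and tests.

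Symbols were matched through a table of RefSeq genes, for names only, and lengths came from an annotation of NCBIM37. All transcripts with at least 1 CPM in both libraries of a genotype were fitted in edgeR 4.0.16 (R 4.3.3; quasi-likelihood test after TMM, threshold 0.05 on the p adjusted by Benjamini-Hochberg), with genotype alone or with genotype and passage. Standard errors came from the fold change and the F statistic. Differences within a passage used a prior count of 2. An exact two-sided permutation test of 2 against 2 libraries cannot go below 0.333. Alternatives were RLE size factors, library totals, other filters, DESeq2 1.42.0, edgeR's exact test, counts summed per gene, a replicate block, a length offset and each library left out. Leaving out libraries in the passage comparison was chosen after seeing the data.

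The members and gene lists were chosen with earlier results of these data known. Named with values are members past a test, the 2 of each complex with the highest level per length, the largest increase and decrease per complex, paralogs of complex IV subunits and of *Ndufa4*, and from each companion list those past a test and the 4 smallest p. Other genes named were chosen after their values were seen. Python 3.11.15, pandas 2.3.3 and matplotlib 3.10.9 made tables and plots. The values of 1 member are not reported here by name.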

Additional observations from a re-analysis of the deposited data

Results flagged for a closer look

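The difference KO minus WT had opposite signs at the passages for the subunits as a group, with 1 library per genotype at each passage, and the difference between the passages was not tested. The median difference at passage 42 minus that at passage 34 was 0.40 on the log2 scale over the 53 tested genes, 0.50 in complex I, 0.30 in complex II, 0.27 in complex III and 0.27 in complex IV.

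The genes listed next are those named with their CPM in each library whose difference changed sign between the passages. It was 0.64 for *Cox4i1*, 0.60 for *Cox5b*, 0.46 for *Cox7a2*, 0.40 for *Uqcrh*, 0.33 for *Cox6a1*, 0.30 for *Sdhb* and 0.29 for *Cox6b1*. Genes that kept their sign are not listed, though *Ndufb8* went from −0.70 at passage 34 to −0.08 at passage 42, and *Cox8a* from −0.64 to −0.04. In 3 genes the signs were the other way round, with −0.21 for *Cox5a*, −0.31 for *Cox7c* and −1.40 for *Uqcrq*. There KO was above WT at passage 34 and below it at passage 42. *Cyc1* kept its sign but also had a negative value, since KO was above WT by 0.03 at passage 42 and by 0.30 at passage 34. None of these differences was tested.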

How the results depend on the processing

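With 2 libraries per genotype, differences of less than about 1.39-fold could not be told from 0 in a typical subunit, by intervals that are not adjusted. Larger differences could also miss the adjusted threshold, as *Sdhc* did with a log2 fold change of 0.57 (adjusted p = 0.252, edgeR). Of the 68 genes, 15 were not tested. Between genotypes the count of subunits called was 0 in 11 of 13 alternatives. Transcripts called numbered 740 with no filter on low counts and 613 with edgeR's exact test. A fit with a replicate block called 1092 transcripts and 1 subunit, *Sdhc* (log2 fold change 0.58, adjusted p = 0.0472). The replicate numbers mark only the passage, and across transcripts the passage differences of KO and WT had a correlation of 0.17. Leaving out each library gave 156 to 1199 transcripts and 0 to 1 subunits called, the 1 being *Uqcrq* with −1.38 without KO replicate 1. It turned to 0.56 without KO replicate 2 and 0.18 without WT replicate 1. The medians then ran from −0.22 to 0.15 over all members, −0.25 to 0.18 in complex III and −0.21 to 0.14 in complex IV. Of the other alternatives none moved a median by complex beyond the spread between passages. That spread, the standard deviation of the medians at the 2 passages, was 0.36 in complex I, 0.21 in complex II and 0.19 in complexes III and IV. It is wider than the medians of the main fit, so no conclusion is drawn from it.

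Between passages, *Uqcrq* was the 1 subunit called with no filter, with DESeq2 (48 transcripts) and with the length offset (95 transcripts), and *Cox5a* had −0.70, −0.74 and −0.66 there. With no genotype term 0 transcripts and 0 subunits were called, and 0 to 8 transcripts and 0 subunits when each library was left out of that fit, with 1605 transcripts at an unadjusted p under 0.05 in the fit with genotype. The median differences within a passage, KO minus WT, were also computed under 4 other settings. Their spread comes from the same passage medians, so a move smaller than it does not show that they are stable. With the length offset the complex IV median at passage 34 went from −0.17 to −0.06. The complex III median at passage 42 went from 0.03 to −0.01. The other medians by complex kept their sign under each setting. The cause of these changes was not tested.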
